A study of Rattus norvegicus with 16 samples.

Results

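Islets of Langerhans are endocrine clusters threaded by a dense bed of fenestrated capillaries, and isolated islets carry part of that endothelium into culture. The genes described here are 10 markers of endothelial cells, chosen by symbol: Pecam1, Cdh5, Kdr, Flt1, Flt4, Tek, Tie1, Eng, Vwf and Plvap. Of these, 9 had a probe set on the array, with 12 probe sets in all, among 14217 genes measured. Cdh5 had no probe set annotated to its symbol and is not analysed here. Kdr and Flt1 had several, and each is represented by its brightest one, averaged over all 16 arrays.

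RNA was taken from cultured pancreatic islets of male Wistar rats aged 8 weeks and measured on 1-colour Affymetrix arrays. Untreated islets gave 5 arrays. Islets given Adβgal, a control adenovirus for βgal, gave 6. Islets given AdNkx6.1, an adenovirus for the beta cell transcription factor Nkx6.1, gave 5. All were kept in RPMI with 8 mM glucose and 10% FBS, those given virus had it for 18 h, and collection was at 48 h. The titles number the arrays as biological replicates, but the labels do not say whether these are separate animals or pools, so p-values measure the spread between these arrays; the treatment protocol states a smaller number of replicates than the 6 Adβgal arrays, and all were used. Neither virus is stated to be directed to a cell type, and every cell type of the islet contributes to the RNA.

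Endothelial cells sense vascular endothelial growth factors through the receptor kinases encoded by Kdr, Flt1 and Flt4. In islets the beta cell is a major source of Vegfa, and this signal maintains capillary density and the fenestrae. The angiopoietin receptor Tek and its relative Tie1 govern vessel stability. Pecam1 is a junctional adhesion molecule, Eng a co-receptor for ligands of the BMP9 and TGF-β family, Vwf the clotting glycoprotein stored in endothelial granules, and Plvap forms the diaphragms of fenestrae and caveolae.

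Many endothelial promoters are bound by ETS family factors such as Erg and Fli1, whose sites contain a GGAA core. The stretches shown are the 120 bases before the annotated start of 4 of the genes. They were chosen because each holds the hexamer AGGAAG or its reverse complement, set in capitals. Kdr, whose levels shifted with those of the others, has no match in its entry and is not shown. A link of the hexamer to the shared levels was not tested. The stretches come from RefSeq on build GRCr8 and are written 5′ to 3′ on the strand of the gene.
Plvap, chr16:18231280-18231399, minus strand: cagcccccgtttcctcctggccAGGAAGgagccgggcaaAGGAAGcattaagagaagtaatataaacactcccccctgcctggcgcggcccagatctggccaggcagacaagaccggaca
Flt1, chr12:12333310-12333429, plus strand: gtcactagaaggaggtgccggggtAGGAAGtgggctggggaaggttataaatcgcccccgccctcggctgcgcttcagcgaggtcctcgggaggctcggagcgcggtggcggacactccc
Tie1, chr5:137304982-137305101, minus strand: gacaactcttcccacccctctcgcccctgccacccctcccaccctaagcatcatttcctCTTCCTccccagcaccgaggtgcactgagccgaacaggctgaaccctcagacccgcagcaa
Eng, chr3:36332159-36332278, plus strand: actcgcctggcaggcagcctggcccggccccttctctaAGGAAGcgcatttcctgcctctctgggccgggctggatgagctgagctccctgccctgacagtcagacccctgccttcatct

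Of the 9 measured genes, 6 had an entry in the promoter table. AGGAAG, searched on both strands over the 250 bases before the start, was found in 5 of these 6 (Eng, Flt1, Flt4, Plvap and Tie1), against 29.5% of the 33469 promoters in the table. The shorter core GGAA, which AGGAAG contains, was found in all 6 and in 93.2% of all promoters. CCGGAA, also overlapping GGAA, was found in the Kdr entry and in 12.6% of all promoters. AGGAAG was chosen after the sequences were seen, so these counts are a description of letters.

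The values of the endothelial genes were close together without virus and spread widely under Adβgal, with the same arrays high or low for nearly all of the genes. Adβgal replicate 1 had the lowest value of any array for 8 of the 9 genes, and Adβgal replicate 5 the highest for 7 of 9. The exceptions were Flt4, lowest on AdNkx6.1 replicate 3 and highest on Adβgal replicate 3, and Flt1, highest on Adβgal replicate 3. Between the highest and lowest array the level differed 23.7-fold for Vwf, 9.58-fold for Tek, 7.94-fold for Tie1 and 3.69-fold for Pecam1. In bulk RNA of this kind, fewer endothelial cells and less of these RNAs per cell cannot be told apart.

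**Figure D1:**
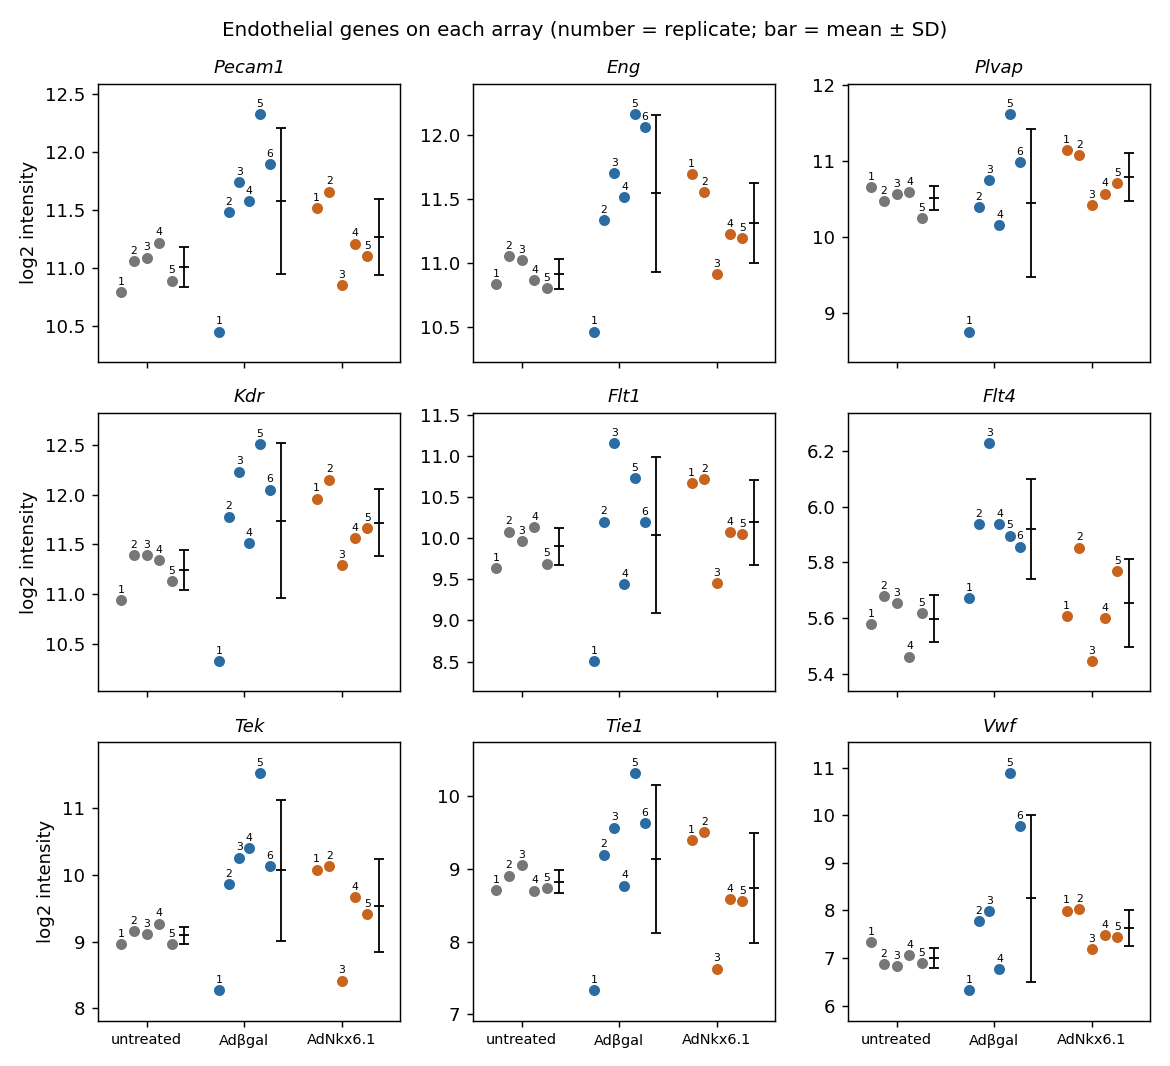
Log2 intensity of each of the 9 endothelial genes on every array, by group, with the replicate number above each point and the group mean ± SD as a bar. The untreated points lie close together, while the Adβgal points spread from replicate 1 at the bottom (8.27 for Tek) to replicate 5 at the top (11.53 for Tek).

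Pecam1 and Eng, which mark endothelium of every vessel type, had bright signals that differed little among the untreated arrays. Pecam1 had log2 intensities of 10.79, 11.06, 11.09, 11.22 and 10.89 on the untreated arrays, 10.45 to 12.33 with a median of 11.66 on the Adβgal arrays, and 11.52, 11.66, 10.85, 11.21 and 11.1 on the AdNkx6.1 arrays. All but 1 of the Adβgal values, that of replicate 1, lay above every untreated value. The mean was 11.01 ± 0.17 (SD, n = 5) untreated, 11.58 ± 0.63 (n = 6) with Adβgal and 11.27 ± 0.33 (n = 5) with AdNkx6.1.

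Eng followed the same arrays. Its untreated values were 10.83, 11.05, 11.02, 10.86 and 10.8. With Adβgal they ran from 10.46 to 12.16 with a median of 11.6, and with AdNkx6.1 they were 11.69, 11.55, 10.91, 11.22 and 11.19. The Adβgal arrays overlapped the untreated ones through the low value of replicate 1, and the AdNkx6.1 arrays overlapped them through replicate 3.

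Kdr, the main signalling receptor for Vegfa, stood at 10.94, 11.39, 11.39, 11.34 and 11.13 untreated. With Adβgal it ran from 10.33 to 12.51 with a median of 11.92, and with AdNkx6.1 it was 11.96, 12.15, 11.29, 11.56 and 11.66. AdNkx6.1 replicate 3 was the single array of that group within the untreated range. The second probe set of Kdr lay at 3.85 to 4.79 over all arrays, at the dim end of the table, and did not follow the first.

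Flt1, which encodes a high-affinity receptor and its soluble decoy form, stood at 9.64, 10.08, 9.97, 10.13 and 9.69 untreated. It ran from 8.51 to 11.15 with a median of 10.19 under Adβgal, and was 10.67, 10.72, 9.46, 10.07 and 10.05 with AdNkx6.1. The highest and the lowest value of Flt1 were both on Adβgal arrays. The other probe sets of Flt1 ran from 6.08 to 8.17 and from 6.26 to 7.36 under Adβgal, with replicate 1 lowest in both.

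Flt4, the receptor for Vegfc that is characteristic of lymphatic and some fenestrated endothelium, was dim and had the smallest range of the 9 genes. Its values were 5.58, 5.68, 5.65, 5.46 and 5.62 untreated, 5.67 to 6.23 with a median of 5.92 with Adβgal, and 5.61, 5.85, 5.45, 5.6 and 5.77 with AdNkx6.1. A single Adβgal array, replicate 1, fell within the untreated range. These levels lie below 6.99, under which the dimmest 25% of genes fall, and no detection call was used.

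The Tie receptors had the largest shared shifts after Vwf. Tek stood at 8.96, 9.16, 9.12, 9.27 and 8.97 untreated, at 8.27 to 11.53 with a median of 10.2 with Adβgal, and at 10.08, 10.13, 8.42, 9.67 and 9.41 with AdNkx6.1. Tie1 stood at 8.71, 8.91, 9.06, 8.7 and 8.74 untreated, at 7.33 to 10.32 with a median of 9.38 with Adβgal, and at 9.39, 9.5, 7.63, 8.59 and 8.55 with AdNkx6.1. In both genes AdNkx6.1 replicate 3 was the low array of its group and lay below every untreated array. For Tie1, AdNkx6.1 replicates 4 (8.59) and 5 (8.55) also lay below every untreated array.

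Vwf had the widest spread. It stood at 7.33, 6.87, 6.83, 7.07 and 6.9 untreated and at 8, 8.04, 7.19, 7.49 and 7.44 with AdNkx6.1. With Adβgal it ran from 6.32 to 10.89 with a median of 7.88; replicates 5 (10.89) and 6 (9.77) stood far above the other arrays of the study. Plvap, in contrast, had nearly the same mean untreated (10.51 ± 0.16) and with Adβgal (10.45 ± 0.97), and a mean of 10.79 ± 0.32 with AdNkx6.1. Its untreated values were 10.66, 10.47, 10.56, 10.59 and 10.25, its Adβgal values ran from 8.75 to 11.62 with a median of 10.57, and its AdNkx6.1 values were 11.14, 11.08, 10.42, 10.57 and 10.71.

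The spread within groups differed from that of other genes in the virus groups. Untreated, the median SD of the 9 genes was 0.16, against 0.12 over all genes. With Adβgal it was 0.95 against 0.23, and with AdNkx6.1 0.34 against 0.15. The SD of Vwf under Adβgal (1.76) was 8.57 times its untreated SD, that of Tek 7.98 times and that of Pecam1 3.7 times, where the median ratio over all genes was 2.1. For 8 of the 9 genes the Adβgal SD exceeded that of at least 91.6% of all genes; Flt4 was the exception, at 33.1%.

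**Figure D2:**
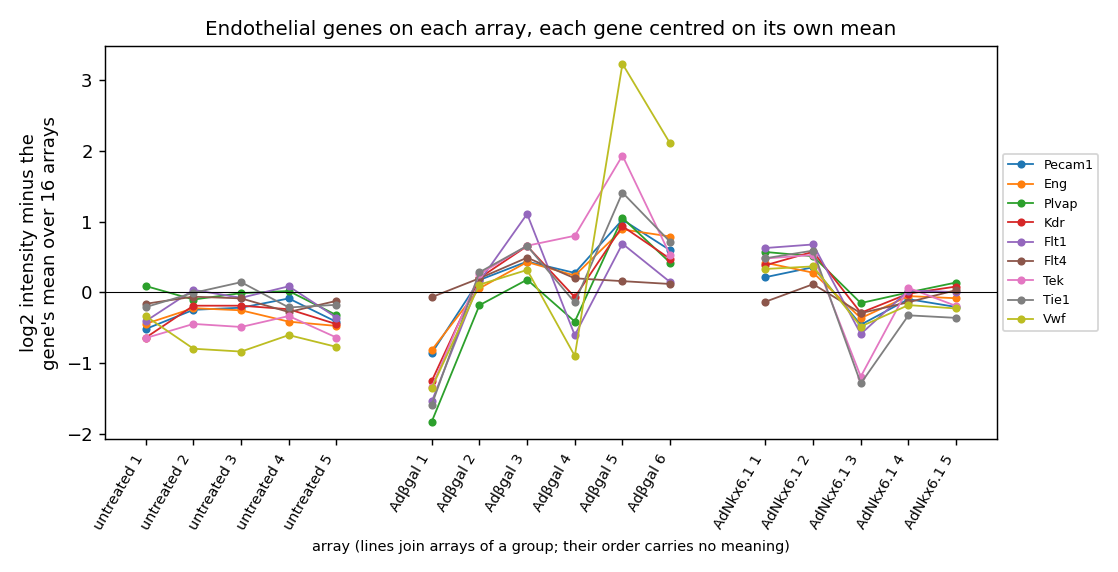
Log2 intensity of each endothelial gene minus its mean over the 16 arrays (vertical axis) for each array (horizontal axis); lines join arrays of a group. Most of the genes move up or down on the same arrays. The mean shift runs from -1.18 on Adβgal replicate 1 to 1.26 on Adβgal replicate 5, and from -0.41 to -0.22 on the untreated arrays. On Adβgal replicate 4 the genes part, with Tek above its mean and Vwf and Flt1 below theirs, and Flt4 shifts little on any array.

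Most of the genes shared this pattern closely. Over the 16 arrays the Pearson correlations of the 36 pairs of genes had a median of 0.78, from 0.2 for Flt4 with Plvap to 0.96 for Pecam1 with Tek and with Eng. After the group means were removed the median was 0.87. The genes were measured on the same arrays after 1 normalization, so the correlations are descriptions. The genes outside the 9 whose values were most like their mean were Mmrn2, an endothelial surface glycoprotein (r = 0.97 over 16 arrays), Htra3, a secreted protease (0.97), Aplnr, the apelin receptor of endothelium (0.97), Dysf, a membrane repair protein (0.97) and Plxnd1, a semaphorin receptor of vessels (0.96); the median r over all other genes was 0.07.

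The first comparison sets the control virus against no virus. Of the 9 endothelial genes 8 had a higher mean with Adβgal and 1, Flt4, passed the threshold, a limma adjusted p under 0.05. Flt4 was 1.25-fold higher, a log2 change of 0.32 ± 0.09 (SE) with adjusted p = 0.048. Across all genes 2.84% were called higher and 4.17% lower, 7.01% in all. The median change of the 9 genes was 0.5, against -0.04 over all genes, and 4 of the 9 had an unadjusted p under 0.05 (24.9% of all genes did). The groups overlapped for all 9 genes in this comparison, where 6.88% of all genes did not overlap, and in both other comparisons (14.2% of all genes for AdNkx6.1 against Adβgal and 32.1% for AdNkx6.1 against untreated).

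The genes that did not pass had wide intervals. The log2 change of Tek was 0.98 with a 95% interval from 0.09 to 1.87 (limma adjusted p = 0.16), that of Eng 0.62 from 0.12 to 1.12 (0.11), and that of Pecam1 0.57 from 0.05 to 1.09 (0.16). Vwf differed by 1.25 from -0.05 to 2.55 (0.22), while Plvap differed by -0.06 from -0.81 to 0.68 (0.93). Leaving out a single array, Adβgal replicate 1, changed several calls. Without it, 5 of the 9 genes were called higher, where 7.49% of all genes were called and 3.34% called higher: Eng (0.84, adjusted p = 0.0087), Pecam1 (0.8, 0.013), Tek (1.34, 0.02), Kdr (0.78, 0.021) and Flt4 (0.37, 0.022). That fit drops the Adβgal array with the lowest mean of the 9 genes (-1.18, centred on each gene's mean). The higher Adβgal mean, and calls gained with it, therefore follow in part from the choice of array.

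Vwf, Tie1, Flt1 and Plvap were called in none of the 16 fits that each left out 1 array. Their smallest limma adjusted p-values were 0.083, 0.19, 0.34 and 0.45. Adβgal replicates 5 and 6 had high means of the 9 genes, centred on each gene's mean (1.26 and 0.66), and replicate 4 did not (-0.07). The mean of replicate 4 averages opposite shifts. There Pecam1, Eng, Tek, Kdr and Flt4 lay above every untreated array, and Flt1, Vwf and Plvap below every untreated array. On replicates 4, 5 and 6 the mean of acinar cell markers, centred likewise, was 1.89, 1.07 and 1.27, above every untreated and AdNkx6.1 array. Adβgal replicate 3 (0.43) was above them too. Leaving out replicates 4, 5 and 6 together, an alternative chosen after seeing the data, gave 0 calls among the 9 genes (3.88% of all genes were called) and a median change of 0.21. It drops the Adβgal arrays with the highest means of the 9 genes (replicates 5 and 6) and keeps the lowest (replicate 1, -1.18). The lower Adβgal mean, and calls lost with it, therefore follow in part from the choice of arrays. The same limit holds for genes varying with the 9 wherever this setting is used below. In that setting the change of Tek was 0.37, of Vwf 0.36 and of Pecam1 0.21. The call of Flt4 also needed particular arrays: it was lost on leaving out any single untreated array, any Adβgal array but replicate 1, or replicate 1, 4 or 5 of AdNkx6.1, at adjusted p-values of 0.052 to 0.12, and under the replicate block (adjusted p = 0.11).

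**Figure D3:**
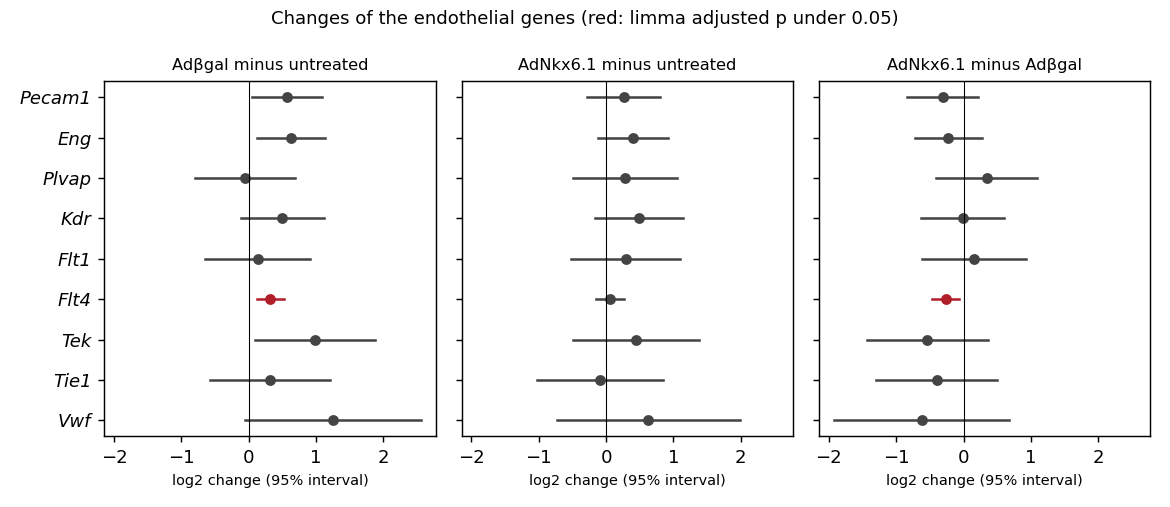
Log2 change of each endothelial gene with its 95% interval from the limma fit in the 3 comparisons; red marks an adjusted p under 0.05. Flt4 is red in the comparisons that include Adβgal, at 0.32 and -0.27, and the widest intervals are those of Vwf.

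The second comparison sets the Nkx6.1 virus against the control virus. Of the 9 genes 7 had a lower mean with AdNkx6.1 and Flt4 alone was called, 1.2-fold lower at a log2 change of -0.27 ± 0.09 (limma adjusted p = 0.047). Among all genes 25% were called, 16.6% higher and 8.48% lower. The 1 of 9 called lower is near the share of all genes called lower. With 0 of 9 called higher, the share called in either direction is below that of all genes. The largest differences that did not pass were those of Vwf, at -0.62 with a 95% interval from -1.92 to 0.68, and Tek, at -0.54 from -1.43 to 0.36. Kdr differed by -0.01 from -0.63 to 0.61, and Plvap by 0.34 from -0.4 to 1.08. This comparison and the previous one share the Adβgal arrays, so their opposite signs are not separate observations.

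Here too the calls changed with the Adβgal arrays used. Without replicate 1, Pecam1 (-0.54, limma adjusted p = 0.03), Tek (-0.9, 0.049) and Flt4 (-0.32, 0.018) were called lower, where 25.7% of all genes were called and 9.35% called lower. Replicate 1 is the Adβgal array with the lowest mean of these genes, so calls gained without it follow in part from that choice. Without replicates 4, 5 and 6 together, 0 were called (28.3% of all genes were), the median change moved from -0.27 to 0.15, and the changes of Pecam1, Tek, Tie1, Eng, Vwf and Kdr turned from negative to positive (0.05, 0.08, 0.04, 0.15, 0.27 and 0.28). That setting drops the Adβgal arrays with the highest means of these genes and keeps the lowest. A shift towards positive therefore follows in part from the choice of arrays. The call of Flt4 was lost when any 1 untreated array, any Adβgal array other than replicate 1, or any AdNkx6.1 array other than replicate 2 was left out, at adjusted p-values of 0.053 to 0.12, and under the replicate block (adjusted p = 0.084).

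The third comparison sets the Nkx6.1 virus against no virus. None of the 9 genes passed in limma, where 30.7% of all genes were called, 16.9% higher and 13.8% lower. None had an unadjusted p under 0.05, where 40.2% of all genes did. Without Adβgal replicates 4, 5 and 6, 0 of 9 were called and 43.2% of all genes were. The means of 8 were higher with AdNkx6.1, with a median change of 0.29, against -0.01 over all genes. Kdr was higher by 0.49 (95% interval from -0.16 to 1.13), Eng by 0.4 (from -0.12 to 0.92) and Vwf by 0.63 (from -0.73 to 1.99), while Tie1 differed by -0.09 (from -1.02 to 0.85). These intervals use a spread shared with the variable Adβgal arrays. In a fit on the AdNkx6.1 and untreated arrays alone, 3 of the 9 were called higher, where 44% of all genes were called and 23.3% called higher: Vwf (adjusted p = 0.0094), Kdr (0.024) and Eng (0.028). Array weights, which reduce the influence of variable arrays, gave 2, Eng (0.047) and Kdr (0.049), where 52.5% of all genes were called and 27.2% called higher.

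The ratio of Plvap to Pecam1 on the same array was lower with Adβgal than in the other groups. Most of its difference from untreated lay in the reference: Pecam1 differed by 0.57 in log2 and Plvap itself by -0.06. Between AdNkx6.1 and Adβgal, Plvap differed by 0.34 and Pecam1 by -0.31. This ratio was examined after the values were seen and is given without a test. It keeps part of the shared shift, since Plvap had a larger SD than Pecam1 under Adβgal (0.97 and 0.63), and like Tek and Tie1 it was still lowest on Adβgal replicate 1 and highest on replicate 5 of that group. Its log2 was -0.13, -0.59, -0.53, -0.63 and -0.64 untreated and -0.38, -0.58, -0.43, -0.64 and -0.39 with AdNkx6.1. With Adβgal it ran from -1.69 to -0.71 with a median of -1.03, below every array of the other groups, while AdNkx6.1 and untreated differed by 0.02. Plvap was the single gene of 8 whose ratio did not overlap between Adβgal and untreated (1.17% of all genes did not) or between AdNkx6.1 and Adβgal (2.08% did not). With Eng as the reference the Adβgal arrays ran from -1.71 to -0.54 and overlapped the untreated ones, which ran from -0.58 to -0.17 (2.39% of all genes did not overlap), and the AdNkx6.1 ones (2.17%). With that reference Flt4 was the single gene without overlap between AdNkx6.1 and untreated, where 35.5% of all genes had none. The ratio of Kdr to Pecam1 was higher on every AdNkx6.1 array (0.44, 0.49, 0.44, 0.36 and 0.56) than on any untreated array (0.12 to 0.34), where 17.6% of all genes did not overlap. Kdr and Flt4 were each 1 ratio of 8 with their reference, below the share of all genes. With Eng as the reference the ratio of Kdr overlapped.

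**Figure D4:**
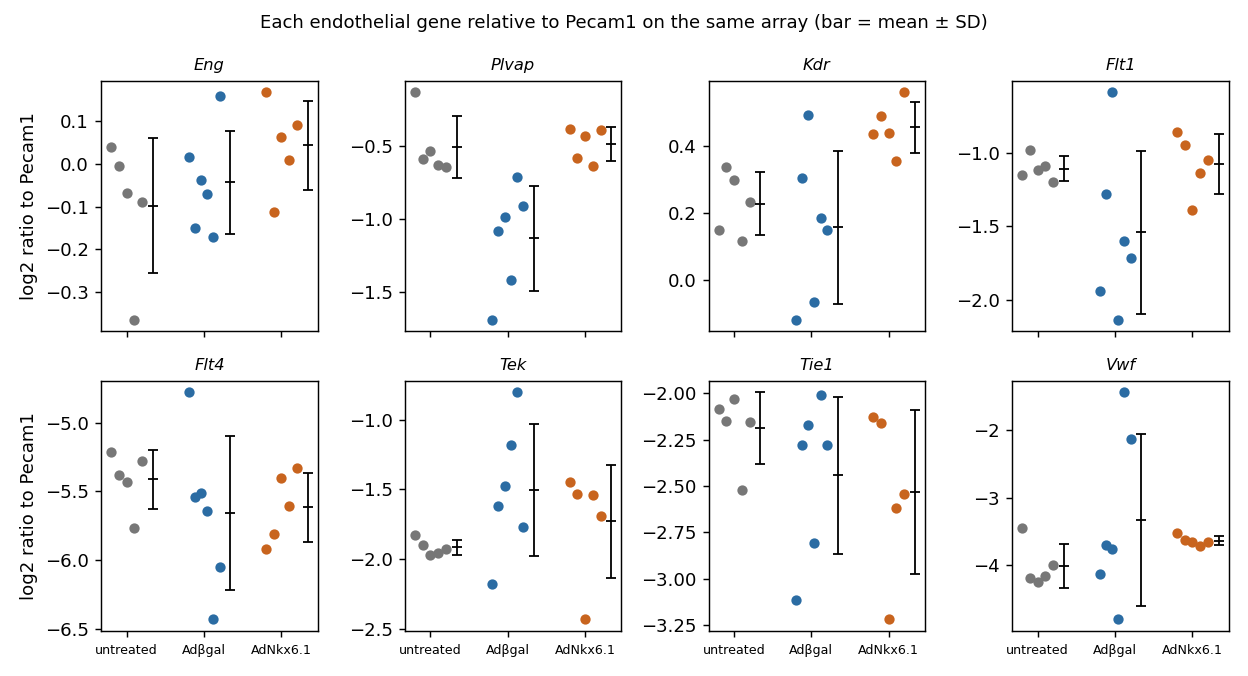
Log2 ratio of 8 endothelial genes to Pecam1 on the same array, by group, with the mean ± SD as a bar. The 6 Adβgal points of Plvap, at -1.69 to -0.71, lie below all untreated and AdNkx6.1 points, whereas those of Eng, at -0.17 to 0.16, lie among them.

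Other endothelial genes had high and low values on the same arrays as the 9. For the counts in this and the next paragraphs, the shares of all genes called were 2.84% higher and 4.17% lower between Adβgal and untreated. They were 16.6% higher and 8.48% lower between AdNkx6.1 and Adβgal, and 16.9% higher and 13.8% lower between AdNkx6.1 and untreated. In the same order of comparisons, 24.9%, 36.2% and 40.2% of all genes had an unadjusted p under 0.05. The list of other endothelial markers, which holds junction, surface and enzyme genes such as Cldn5, Esam and Nos3, had 22 of 25 members measured. Its mean per array correlated with that of the 9 at r = 0.98 over 16 arrays. None of the 22 passed in limma for Adβgal against untreated, where 7 had an unadjusted p under 0.05 and the median change was 0.47; Egfl7, a secreted endothelial factor, differed by 0.61 (adjusted p = 0.074) and Acvrl1, the BMP9 receptor kinase, by 0.87 (0.083). None passed for AdNkx6.1 against Adβgal (median -0.21; 4 had an unadjusted p under 0.05), and Cldn5, a tight junction gene, differed by -2.19 (0.078), or by -0.28 without Adβgal replicates 4, 5 and 6. Ramp2, the adrenomedullin receptor partner, rose 1.35-fold between AdNkx6.1 and untreated (limma adjusted p = 0.0091), the single call among the 22, where 30.7% of all genes were called. Without Adβgal replicates 4, 5 and 6 the list's median was 0.06 for Adβgal against untreated and turned to 0.12 for AdNkx6.1 against Adβgal. In that setting 2 were called higher between AdNkx6.1 and untreated, Ramp2 and Egfl7 (0.48, 0.011), and 1 lower, Cldn5 (-1.54, 0.0099). Of all genes 43.2% were called there, a larger share than in this list.

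Of 20 endothelial transcription factor genes, 2 rose with Adβgal against untreated and 0 fell: Heyl, a Notch target, 1.71-fold (limma adjusted p = 0.0026) and Mef2c 1.72-fold (0.0091), both without overlap of the groups. Of all genes 2.84% were called higher and 4.17% lower. The list's median change was 0.41, and 0.02 without Adβgal replicates 4, 5 and 6. Without them the change of Mef2c was 0.43 (adjusted p = 0.053). Between AdNkx6.1 and Adβgal, where 8.48% of all genes were called lower, 2 fell, Klf4 1.54-fold (0.045) and Mef2c 1.36-fold (0.0496), and neither was called without those replicates (-0.34, 0.081, and -0.1, 0.59). Between AdNkx6.1 and untreated, where 30.7% of all genes were called, Heyl rose 1.52-fold and the hypoxia factor gene Epas1 1.56-fold, while Klf4, a flow-responsive factor, fell 1.54-fold. Many of these factors are also made by other islet cells.

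A list of vascular ligand genes had 15 of 19 members measured. It holds ligands of the receptors above, such as Vegfa, and genes that are not, such as Angptl4, Fgf1, Fgf2 and Adm. Its counts and medians therefore do not describe ligands of the 9 genes alone. The list's median change was -0.04 for Adβgal against untreated, 0.02 for AdNkx6.1 against untreated and -0.2 between the viruses. Its mean per array correlated with that of the 9 genes at r = 0.8 over 16 arrays. Vegfa, the ligand of Kdr and Flt1, stood at 12.51 ± 0.08 untreated, 12.42 ± 0.1 with Adβgal and 12.22 ± 0.14 with AdNkx6.1. Between the viruses Vegfa was not called (-0.2, limma adjusted p = 0.052, and -0.13, 0.25 without Adβgal replicates 4, 5 and 6). With AdNkx6.1 against untreated it fell 1.22-fold (limma adjusted p = 0.0086). Vegfb, a ligand of Flt1, fell 1.36-fold in the same comparison (0.001) and 1.23-fold against Adβgal (0.014). Fgf2 fell 1.25-fold (0.019), and Vegfc, the ligand of Flt4, differed by -0.51 (adjusted p = 0.051). Angptl4, a lipase inhibitor that acts on vessels, rose 3.18-fold against untreated (3.6e-06) and 1.91-fold against Adβgal (0.00069), and in the latter comparison Fgf1 rose 1.52-fold (0.007) and Adm, encoding adrenomedullin, 1.51-fold (0.034). With Adβgal against untreated Angptl4 rose 1.67-fold (0.017; 0.081 without Adβgal replicates 4, 5 and 6) and was the single call among the 15.

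Among 19 measured co-receptor and signalling genes, Notch1 rose 1.68-fold between AdNkx6.1 and untreated (limma adjusted p = 8.7e-05) and 1.45-fold against Adβgal (0.0013), and the Notch ligand gene Jag2 rose 1.39-fold (0.039) and 1.49-fold (0.013). Tgfbr1, a TGF-β receptor, fell 1.35-fold (0.0016) and 1.22-fold (0.021; 0.13 without Adβgal replicates 4, 5 and 6). Against Adβgal the receptor gene Acvr2b also rose (0.037; 0.062 without those replicates) and Bmpr2, which pairs with Acvrl1, fell, for 5 called of 19, 3 higher and 2 lower, a share near the 25% of all genes called (16.6% higher and 8.48% lower). Jag1 rose 1.55-fold with Adβgal against untreated (0.0089; 0.066 without Adβgal replicates 4, 5 and 6). Of 11 activation and adhesion genes, which are also made by other cells under interferon and cytokines, Icam1 rose 3.71-fold between AdNkx6.1 and untreated (3.4e-06), and Cxcl10 4.38-fold (0.00011) and Cxcl9 2.38-fold (0.0019), while the coagulation initiator F3 fell 1.21-fold (0.029). With Adβgal against untreated Cxcl10 rose 2.81-fold (0.0099) and F3 fell 1.28-fold (0.021; 0.092 without Adβgal replicates 4, 5 and 6), and Icam1 rose 3.15-fold between AdNkx6.1 and Adβgal (1e-05).

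Genes of the vascular basement membrane, 12 of 12 measured, had a higher mean with each virus than untreated in every case when all arrays were used. Without Adβgal replicates 4, 5 and 6, Nid1 (-0.06) and Lamb2 (-0.02) turned negative for Adβgal against untreated and the list's median went from 0.4 to 0.11. Lama4, the laminin chain of endothelium, rose 1.71-fold with Adβgal (limma adjusted p = 0.0036) and 1.35-fold with AdNkx6.1 (0.027), and Lamb1 rose 1.59-fold (0.015; 0.12 without Adβgal replicates 4, 5 and 6) and 1.38-fold (0.033). Lama5 rose 2.2-fold with AdNkx6.1 (0.0022), giving 2 called higher with Adβgal (2.84% of all genes were) and 3 with AdNkx6.1 (16.9%), and 0 lower. Between the viruses 0 were called and 2 had an unadjusted p under 0.05, as 36.2% of all genes did. The smallest limma adjusted p was that of Lama5 (0.65, 0.053), which was called without Adβgal replicates 4, 5 and 6 (0.98, 0.00043). Both virus comparisons use the same untreated arrays. Of 6 lymphatic genes, 0 passed in limma with Adβgal against untreated (0 with an unadjusted p under 0.05). Between the viruses 0 passed and 1 had an unadjusted p under 0.05, as 36.2% of all genes did. Reln fell 1.48-fold between AdNkx6.1 and untreated (0.047). Lyve1, a defining lymphatic marker, stood at 4.34 ± 0.2 untreated and 5.18 ± 1.3 with Adβgal, both at the dim end of the table, and Prox1, the lymphatic regulator, is also expressed by endocrine cells of the islet.

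Markers of other cell types were set beside the endothelial genes. Pericyte and smooth muscle markers (12 of 12 measured) had the highest correlation with them among the lists of other cell types, at r = 0.93 over the 16 arrays; their mean, centred on each gene's mean, ran from -0.91 to 0.84 with Adβgal, from -0.42 to 0.1 with AdNkx6.1 and from -0.33 to -0.13 untreated, and Adβgal replicate 1 was lowest and replicate 5 highest. Among these 12, Tagln, a contractile gene, was called higher with Adβgal against untreated (0.61, limma adjusted p = 0.017) and lower with AdNkx6.1 against Adβgal (-0.41, 0.045), and 0 others were called in either. Without Adβgal replicates 4, 5 and 6 both calls were lost (0.3, adjusted p = 0.072, and -0.1, 0.45). Basement membrane genes gave r = 0.94. Leukocyte markers (15 of 16) gave 0.31, with ranges of -0.27 to 0.72, -0.5 to 0.26 and -0.15 to 0.17 in the same order of groups. Acinar markers (10 of 12) gave 0.34, with ranges of -1.05 to 1.89, -1.28 to 0.36 and -0.69 to 0.2. The acinar mean was highest on Adβgal replicate 4 (1.89), where the endothelial mean was -0.07, an average of genes shifted up and genes shifted down. Platelet and erythroid markers (6 of 8) gave -0.01. The part of these cells in the endothelial differences was not tested.

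**Figure D5:**
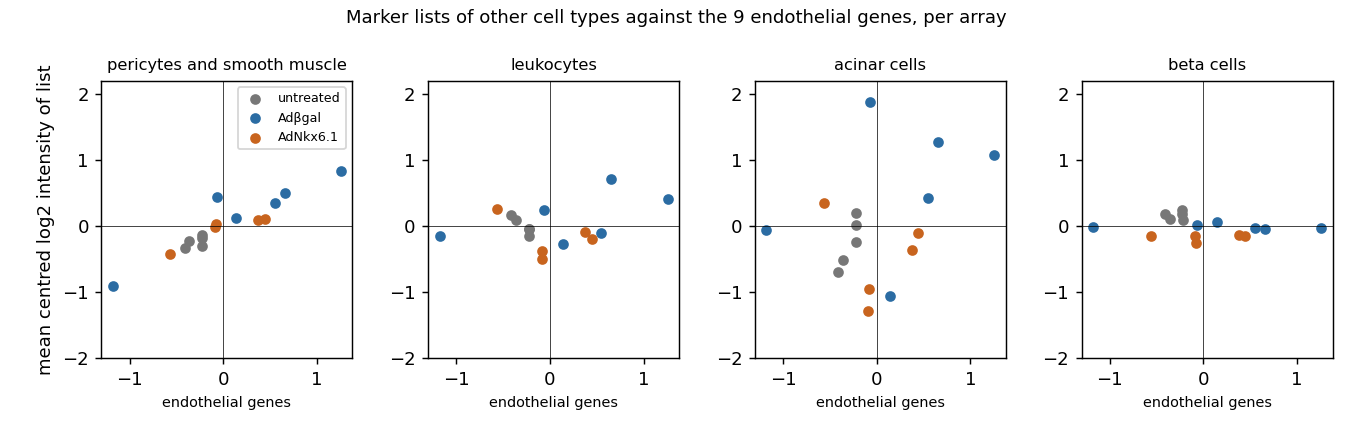
Mean centred log2 intensity of marker lists for pericytes and smooth muscle, leukocytes, acinar cells and beta cells (vertical axes) against that of the 9 endothelial genes (horizontal axes), 1 point per array. The mural points follow a rising line (r = 0.93), and the acinar and leukocyte points do not (0.34 and 0.31).

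Of beta cell markers 7 of 10 were measured, and the insulin gene Ins2 stood at 14.82 ± 0.08 untreated and 14.76 ± 0.06 with Adβgal. Their centred mean gave r = -0.24 with the endothelial genes. It ran from 0.1 to 0.25 untreated, from -0.04 to 0.06 with Adβgal and from -0.25 to -0.13 with AdNkx6.1, so the 3 groups did not overlap. Between AdNkx6.1 and untreated 5 of the 7 were called lower in limma (13.8% of all genes were): Nkx6-1 (-0.80), Pdx1 (-0.53), Slc2a2 (-0.42), Mafa (-0.25) and Iapp (-0.18), while Ins1 and Ins2 each differed by -0.06. The arrays had median intensities of 264.8 to 296.2 over all probe sets. The rat Nkx6-1 probe set gave 11.43 ± 0.17 with AdNkx6.1 and 11.9 ± 0.19 with Adβgal, a 1.38-fold fall (limma adjusted p = 0.0023). Whether that probe set can detect the RNA made from the virus is not given in the sources used here, so it is no check of the labels.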

How the data were processed

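Total RNA of 16 islet samples was labelled and hybridised to Affymetrix rat arrays, 1 array per sample. The deposited values are linear intensity, 1 value per probe set and array. Per the submitters' processing notes the authors used RMA, a method that adjusts for background and puts arrays on 1 distribution before probes are combined; its version and the return to a linear scale are not given in the sources used here. The analysis had been planned for log2 values, so log2 was taken first, without an offset. Of 31099 probe sets 57 controls were left out, and 20826 of the rest carried 1 gene symbol, 436 several and 9780 none in the platform annotation; 14217 genes were tested, each by its brightest probe set. limma 3.58.1 in R 4.3.3 was fitted over the 3 groups (lmFit, contrasts.fit, eBayes), 2-sided, with Benjamini-Hochberg adjustment over all genes and a threshold of 0.05; changes are first minus second group ± SE. The fit was tested on simulated data. Members, gene lists and alternatives were chosen with earlier results of these data known. All 10 members are named where measured, and of each other list up to 4 genes of smallest p per comparison; genes named for likeness are the 5 of highest r. Genes named outside it (Esam, Nos3, Vegfc, Ins1, Ins2, Nid1, Lamb2, and others in comparisons where their p was not among the smallest) were chosen after their values were seen, as background or to complete a count. Lists are described by counts and medians, with no test of the list. The number of arrays limits the precision.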

Additional observations from a re-analysis of the deposited data

How the results depend on the processing

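The alternatives were another quantile normalization, an offset of 32 before log2, averaging the probe sets of a gene, all 31042 probe sets tested singly, leaving out the dimmest 25% of genes, the replicate block, array weights, fits on 2 groups, eBayes with trend and robust settings, and leaving out each array; leaving out Adβgal replicates 4, 5 and 6 together was chosen after seeing the data. For AdNkx6.1 against Adβgal, 1 endothelial gene was called, and 0 were after quantile normalization, with the offset, with probe sets tested singly, without dim genes, with the block, on 2 groups, with trend and robust settings, and without Adβgal replicates 4, 5 and 6; leaving out 1 array gave 0 to 3. For Adβgal against untreated, 1 was called, and 0 were after quantile normalization, with the offset, without dim genes, with the block, on 2 groups, with trend and robust settings, and without those 3 arrays; array weights gave 2, and leaving out 1 array gave 0 to 5. For AdNkx6.1 against untreated, 0 were called, array weights gave 2 and the fit on 2 groups 3. Leaving out the dimmest genes removes Flt4 itself, and for the other losses the cause was not tested.

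Some uncalled changes turned sign. Between AdNkx6.1 and Adβgal, Kdr (-0.01) became 0.051 with the replicate block and ran from -0.294 to 0.143 with 1 array left out, and Flt1 (0.15) became -0.156 with array weights and ran from -0.151 to 0.377. Without Adβgal replicates 4, 5 and 6, Pecam1 became 0.048, Kdr 0.277, Tek 0.077, Tie1 0.036, Eng 0.149 and Vwf 0.269. Between Adβgal and untreated, Flt1 (0.13) ran from -0.088 to 0.44 and Plvap (-0.06) from -0.296 to 0.278 with 1 array left out, and Tie1 (0.31) became -0.124 without replicates 4, 5 and 6. Between AdNkx6.1 and untreated, Tie1 (-0.09) ran from -0.28 to 0.188 with 1 array left out. The cause was not tested.

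Same-numbered arrays did not deviate together (correlations of deviations from -0.39 to 0.25), so the numbers were not taken to pair the samples. The block moved the count of genes called for Adβgal against untreated from 997 to 393; fits on 2 groups gave 521, array weights 1790, probe sets tested singly 2685, arrays left out in turn 509 to 1503, and leaving out Adβgal replicates 4, 5 and 6 gave 552. Probe sets tested singly gave 6196 against 3560 genes for AdNkx6.1 against Adβgal, and array weights 7469 against 4360 for AdNkx6.1 against untreated. No value of the 9 genes stood apart from its group by Dixon's test in 27 gene and group combinations. With 5 or 6 arrays per group this test finds only a value set very far apart. Paired high values, such as Vwf on Adβgal replicates 5 and 6, can hide each other from it.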
